A study of Homo sapiens with 6 samples.

Results

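Docking adaptors are proteins without enzyme activity that link activated receptors to effector proteins, many of them by being phosphorylated on tyrosines to which those effectors bind. Their genes followed here were the insulin receptor substrates IRS1, IRS2 and IRS4, the related DOK4, the GRB2-associated binders GAB1 and GAB2, the FGF receptor substrates FRS2 and FRS3, and the linkers SHC1 and GRB2. They were taken by gene symbol, 10 of the 26490 symbols in the count table, and the rule itself used no measured value. These genes were chosen, however, with earlier results of these data known. All 10 passed the filter on low counts. RNA was sequenced from SW403, an established human colon adenocarcinoma line, in 3 control libraries, whose genotype is labelled WT, and 3 libraries with IRS2 knockdown. Both groups were cultured in DMEM with fetal bovine serum for 24 h without any added agent. The titles speak of a knockdown while the descriptions abbreviate it with the letters KO and mark the controls with the letters NS. The titles number the libraries of each group as bio_rep. How IRS2 was lowered is not given in the sources used here. Nor do these sources say whether the 3 libraries of a group came from separately made lines, so the p-values measure only the spread between these libraries. The comparison asks which docking adaptors the cells transcribe beside IRS2 and whether any of them rose or fell when IRS2 was lowered.

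As background, insulin and IGF receptors phosphorylate the insulin receptor substrates on many tyrosines, and these hold the regulatory subunits of PI3K and the adaptor GRB2. PI3K then activates AKT, and GRB2 brings SOS to RAS. FGF and neurotrophin receptors use FRS2 and FRS3 for the same purpose, and GAB1 and GAB2 join many receptors through GRB2 and hold PI3K and the phosphatase SHP2. FOXO factors, which AKT keeps out of the nucleus, are known activators of IRS2 transcription in liver, where they bind an insulin response element next to an E-box.

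Because IRS2 and IRS4 were the members with the largest falls, the DNA around their starts is shown first, beside that of IRS1, which did not pass the test. The windows come from RefSeq on build GRCh38.p14. Each covers 300 bases, from 250 before to 50 after an annotated start, and is written 5′ to 3′ on the gene's strand. RefSeq windows were found for 9 of the 10 members, all but GAB1. IRS2 is at chr13:109786534-109786833, the second annotated start of IRS4 at chrX:108736328-108736627, and IRS1 at chr2:226799771-226800070, all on the minus strand. Capitals mark a run of 17 bases around the letters TGTTTTG in IRS2 and IRS4, and in IRS1 the longest run of letters it shares with that IRS4 window on the same strand, GTCACGTGTT.
IRS2: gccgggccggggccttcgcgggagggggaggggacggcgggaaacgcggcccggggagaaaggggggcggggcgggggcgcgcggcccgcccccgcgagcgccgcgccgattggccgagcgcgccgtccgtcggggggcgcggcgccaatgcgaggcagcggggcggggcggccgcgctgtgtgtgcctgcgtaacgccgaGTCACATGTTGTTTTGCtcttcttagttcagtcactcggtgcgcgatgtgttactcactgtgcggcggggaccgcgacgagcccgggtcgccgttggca
IRS4: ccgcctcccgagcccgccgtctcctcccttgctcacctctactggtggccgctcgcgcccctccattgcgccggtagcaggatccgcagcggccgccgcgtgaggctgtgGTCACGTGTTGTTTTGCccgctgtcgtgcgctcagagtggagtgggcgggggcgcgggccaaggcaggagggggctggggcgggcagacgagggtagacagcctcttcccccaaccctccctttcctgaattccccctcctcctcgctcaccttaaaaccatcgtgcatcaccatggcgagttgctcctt
IRS1: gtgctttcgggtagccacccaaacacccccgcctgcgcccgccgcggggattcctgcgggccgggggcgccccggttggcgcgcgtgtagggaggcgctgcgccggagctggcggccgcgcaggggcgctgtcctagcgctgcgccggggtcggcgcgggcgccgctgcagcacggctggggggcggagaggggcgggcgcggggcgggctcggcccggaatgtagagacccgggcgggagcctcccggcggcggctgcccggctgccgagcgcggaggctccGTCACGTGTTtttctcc

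The runs in capitals differed at a single position. Counted from 1 at the 5′ end of the run, the difference from IRS2 to IRS4 was A6G, so both genes carry an E-box (CACATG in IRS2, CACGTG in IRS4) whose last bases, TG, also begin the letters TGTTGTTTTGC. The run starts 49 bases before the IRS2 start and 140 bases before the second IRS4 start. Searched on both strands in the 35116 windows of 27305 genes, the run with that position left free, GTCACNTGTTGTTTTGC, was found in 3 genes, IRS2, IRS4 and IRS4-AS1. The last is an antisense RNA whose window overlaps that of IRS4, so the 3 genes stand for 2 sites. The exact letters TGTTGTTTTGC were found in 8 genes, which is 0.0293% of those with a window. The shorter TGTTTTG was present in 6.05% of the genes and in 4 members, IRS2, IRS4, GAB2 and DOK4. Of these members IRS2 and IRS4 fell with knockdown, while GAB2 and DOK4 rose (log2 fold changes 0.72 and 0.27). CACGTG was present in 8.77% of the genes and in 2 members, IRS1 and IRS4. CACATG was present in 13.4% of the genes and, among the members, in IRS2 and DOK4. The 9 members had 16 windows, and a gene with several windows can more easily hold a short run. Of the 508 tested genes with TGTTTTG, 40.6% passed the test described below. The share was also 40.6% for the 1364 with CACGTG and 39.0% for the 1056 with CACATG, against 38.5% of all tested genes. TGTTTTG lies within the run in capitals of IRS2 and IRS4, and CACGTG within that of IRS4. IRS1, which did not pass the test, holds the first 10 bases of the IRS4 run exactly, 33 bases after its start and without the TGTTTTG that follows in IRS4. These 10 letters were found in 18 genes, 0.0659% of those with a window. The longest exact run shared by these windows of IRS2 and IRS4 on the same strand lay elsewhere. It was 13 bases of only G and C, found in 74 genes, while the run in capitals holds 11 exact bases in a row. IRS2 shared longer exact runs with SHC1 and GRB2 (15 bases each) and with FRS3 (14 bases). Of these members SHC1 rose, and GRB2 and FRS3 did not pass the test. The run in capitals of IRS2 and IRS4 was noticed after the values of these genes had been seen. It is a description of letters and not of a bound site, and its part in the values below was not tested.

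In the deposited counts the control libraries held 11816973 to 12585013 reads and the knockdown libraries 14329348 to 18114656, so every knockdown library was the deeper. Amplified reads are not independent molecules. Of 12 colon epithelial markers 6 passed the filter on low counts. Among these KRT8 and KRT18, the simple epithelial keratins, averaged 1106 and 1131 CPM in control (counts scaled to a common library total) and did not pass the test. KRT19 and EPCAM fell and CDX2 rose, with log2 fold changes of -0.47, -0.21 and 0.14 (edgeR adjusted p 4.35e-08, 0.00581 and 0.0148). KRT20, CDX1 and CEACAM5 had 0 counts in all 6 libraries, and CDH1, the E-cadherin gene, had at most 5. The summed level of the epithelial markers was 2537 to 2637 CPM in control and 2364 to 2457 CPM in knockdown libraries. The summed level of 12 markers of immune, endothelial and stromal cells was 14.6 to 33.3 CPM in control and 10.3 to 12.9 CPM in knockdown libraries, with PECAM1 at 0, and the highest value was that of control replicate 1, where COL1A1 had 193 counts. Of the 5 of these that were tested, COL1A1 and COL3A1, which encode fibrillar collagens, fell with log2 fold changes of -1.15 and -1.71 (edgeR adjusted p 0.0029 and 0.0136). COL1A1 had 15.3, 5.73 and 5.67 CPM in control and 4.26, 3.63 and 3.975 CPM in knockdown libraries, so control replicate 1 stood apart. It also stood apart for COL1A2, which did not pass the filter on low counts. COL1A2 had 86, 11 and 3 counts in control and 8, 1 and 8 in knockdown libraries. COL3A1 had few reads, 34, 19 and 5 counts in control and 6, 3 and 14 in knockdown libraries, and its groups overlapped. The part of these marker changes in the members' values was not tested. Without control replicate 1 the same 6 members passed the test as with it. Leaving out that library does not address KRT19 and EPCAM, which were lower in every knockdown library than in every control library. In bulk RNA fewer cells with a transcript and less of it per cell cannot be told apart.

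Of the 10 members 6 changed with knockdown, 3 downwards and 3 upwards (quasi-likelihood test of edgeR, threshold on the adjusted p 0.05). IRS4, IRS2 and GAB1 fell, and GAB2, DOK4 and SHC1 rose. IRS1, GRB2, FRS2 and FRS3 did not pass. Over all 13832 genes tested, 38.5% passed, 19.3% higher and 19.2% lower, against 60% of the members, and the shares rest on 10 genes. The members that passed include IRS2, whose fall was set by the design and is no result about the members. The split over all genes moved with the scaling, to 2206 higher and 3198 lower with library size alone and 2354 higher and 3012 lower with upper-quartile factors, while 3 members were higher and 3 lower under both. For the same 6 members the 3 CPM values of each group did not overlap, while this held for 48.4% of all tested genes, 19.6% with higher and 28.8% with lower values after knockdown. Taken without sign, the median log2 fold change of the members, IRS2 included, was 0.26 and that of all tested genes 0.14.

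**Figure D1:**
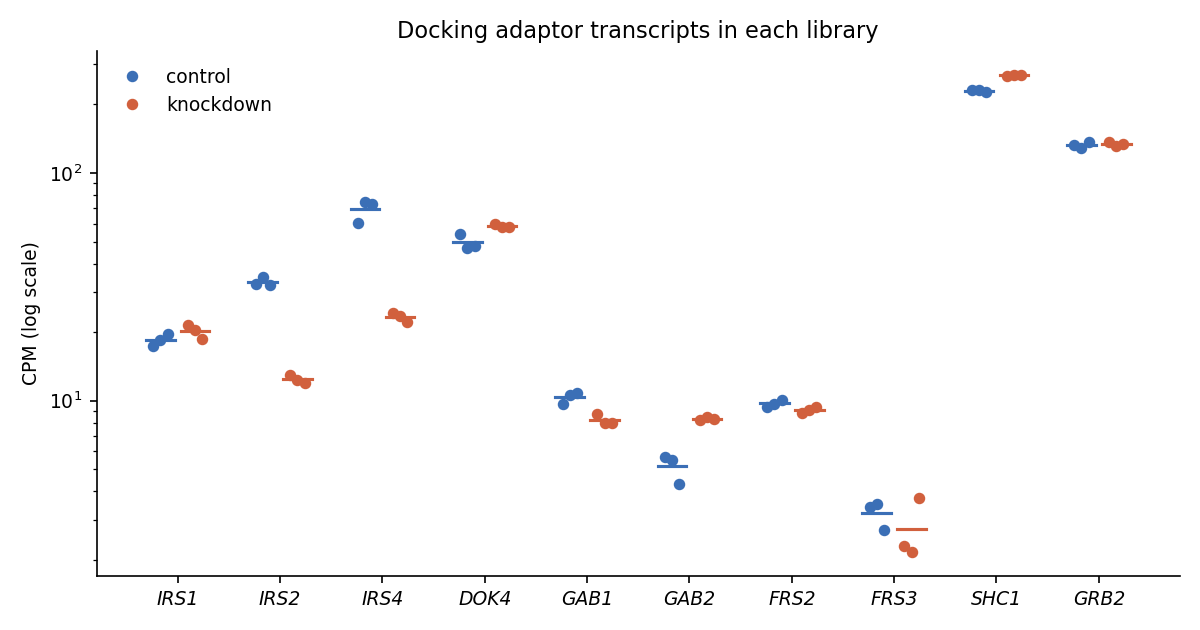
Level of the 10 docking adaptor genes in each library, in CPM on a log axis; points are libraries (3 per group) and bars the group means. IRS2 and IRS4 are lower in every knockdown library than in every control library, while the points of IRS1, FRS2, FRS3 and GRB2 overlap between groups.

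IRS2 itself, the targeted gene, is encoded on chromosome 13 (GRCh37, 110405042 to 110438930) in a transcript of 2 exons. It had 32.4, 34.8 and 32.2 CPM in the control libraries and 13.0, 12.3 and 11.9 CPM in the knockdown libraries. The groups were far apart relative to their spread and the knockdown libraries kept a measurable level. The estimated fall was 2.62-fold (log2 fold change -1.39 ± 0.07 SE, edgeR adjusted p 3.12e-11). The exons of IRS2 share 115 bases with a long noncoding RNA on the opposite strand, which is not in the deposited counts.

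IRS4, on chromosome X (GRCh37, 107963176 to 107979793), is a substrate that most adult tissues transcribe little. It was the most abundant of the 3 insulin receptor substrates in reads. It had 60.1, 74.7 and 72.8 CPM in the control libraries and 24.4, 23.4 and 22.2 CPM in the knockdown libraries. Control replicate 1 was the lowest control library and was still above all knockdown libraries. The fall was 2.91-fold (log2 fold change -1.54 ± 0.07 SE, edgeR adjusted p 1.07e-11). In the GENCODE annotation the exons of IRS4 share 439 bases with IRS4-AS1 on the opposite strand and 563 bases with RP6-24A23.6 on the same strand. Neither of these genes is in the deposited counts. The strand setting of the counting is not given in the sources used here, so reads within the shared bases cannot be assigned.

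IRS1, on chromosome 2 (GRCh37, 227596028 to 227664536), which carries insulin signals in muscle and fat, had 17.4, 18.5 and 19.7 CPM in control and 21.4, 20.5 and 18.7 CPM in knockdown libraries. The groups overlapped, since knockdown replicate 3 lay between control replicates 2 and 3. Its log2 fold change was 0.15 ± 0.08 SE with a 95% interval from -0.01 to 0.31 (edgeR adjusted p 0.138). The interval includes both no change and a rise of up to 1.24-fold.

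Ratios within a library do not depend on how libraries are scaled. The ratio of IRS4 to IRS2 counts was 1.85, 2.15 and 2.26 in control and 1.88, 1.90 and 1.87 in knockdown libraries. The knockdown values lay inside the control range, and the log2 ratio differed by -0.14 (exact two-sided permutation test, p = 0.4, adjusted 0.533). The ratio of IRS1 to IRS2 counts rose from 0.537, 0.531 and 0.612 in control to 1.65, 1.67 and 1.56 in knockdown libraries. These groups did not overlap, and the log2 ratio differed by 1.54. The exact two-sided permutation p was 0.1, the smallest that 3 against 3 libraries can give, and 0.2 after Benjamini-Hochberg adjustment over the 4 ratios computed. IRS2, the denominator, was the gene lowered by design, and IRS1 did not pass the test. The rise of this ratio was therefore set by the design and does not show a rise of IRS1.

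To compare levels between genes, CPM was divided by the length of 1 canonical transcript per gene in kb. The transcripts of IRS1, IRS2 and IRS4 are 9771, 8156 and 6563 nt long. Summed over the 3 genes, the level was 14.9, 17.5 and 17.1 CPM per kb in control and 7.50, 7.18 and 6.76 CPM per kb in knockdown libraries. The highest knockdown sum lay well below the lowest control sum, as 2 of its 3 parts had fallen. IRS4 made up 63.8% ± 2.05 of the control sum and 49.8% ± 0.314 of the knockdown sum (SD, n = 3 each). IRS1 went from 11.5% ± 0.642 to 28.9% ± 0.579 without a change of its own level past the threshold, and IRS2 from 24.7% ± 1.78 to 21.3% ± 0.307 (SD, n = 3 each). These shares depend on the transcript. With the longest annotated transcript, 16461 nt for IRS4, IRS4 was 41.3% of the control sum and 28.3% of the knockdown sum, and IRS1 was the largest part in knockdown, at 41.3%.

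**Figure D2:**
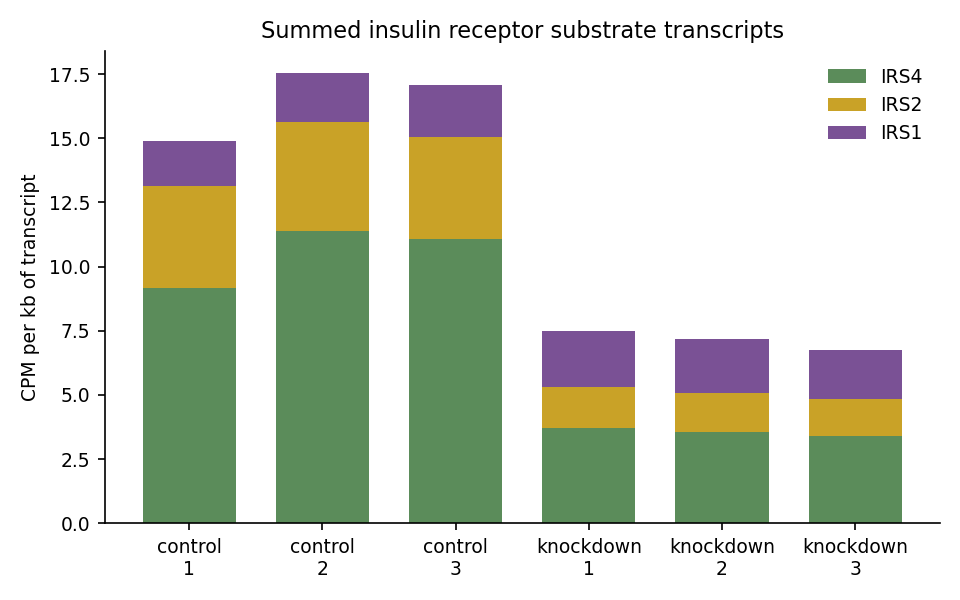
Summed level of IRS1, IRS2 and IRS4 in each library, in CPM per kb of the canonical transcript; each bar is a library and each colour a gene. The control sums lie between 14.9 and 17.5 and the knockdown sums between 6.76 and 7.50, with the IRS1 segment of similar height in all bars.

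The GRB2-associated binders moved in opposite directions. GAB1, on chromosome 4 (GRCh37, 144258029 to 144395718) and best known as the partner of the HGF receptor MET, had 9.69, 10.6 and 10.8 CPM in control and 8.72, 7.97 and 8.005 CPM in knockdown libraries. The groups did not overlap but came close, with control replicate 1 the nearest to the knockdown libraries. The log2 fold change was -0.31 ± 0.11 SE (edgeR adjusted p 0.0278). This call was lost with DESeq2's Wald test (adjusted p 0.142), with counts thinned to the smallest library (0.0571), and when control replicate 2 or 3 or knockdown replicate 2 or 3 was left out (0.0886, 0.0888, 0.0882 and 0.0627).

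GAB2, on chromosome 11 (GRCh37, 77926339 to 78129394), is a binder widely used by cytokine receptors in blood cells. Its reads numbered 71, 69 and 51 in control and 118, 144 and 150 in knockdown libraries, which is 5.64, 5.49 and 4.32 CPM against 8.23, 8.44 and 8.28 CPM. Every knockdown library was above every control library, and control replicate 3 was the lowest. The rise was 1.64-fold, the largest among the members (log2 fold change 0.72 ± 0.13 SE, edgeR adjusted p 0.00029). Without control replicate 3 the log2 fold change was 0.61 (edgeR adjusted p 0.00209). The ratio of GAB2 to GAB1 counts, looked at after these values were seen, was 0.582, 0.519 and 0.398 in control and 0.944, 1.06 and 1.03 in knockdown libraries, so both genes had similar counts after knockdown. The log2 ratio differed by 1.03 (exact two-sided permutation p = 0.1, adjusted 0.2 over 4 ratios). The exons of GAB2 share 95 bases with a long noncoding RNA on the opposite strand, which is not in the deposited counts.

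SHC1 and GRB2, the linkers to RAS, were the most abundant members. SHC1, on chromosome 1 (GRCh37, 154934774 to 154946871), had 230.8, 230.5 and 225.9 CPM in control and 268.1, 270.6 and 268.2 CPM in knockdown libraries. The spread within groups was small and the groups did not overlap. The rise was 1.20-fold (log2 fold change 0.26 ± 0.03 SE, edgeR adjusted p 1.79e-06). SHC1 shares 335 exonic bases with PYGO2, which had a log2 fold change of -0.08 (edgeR adjusted p 0.265), and has the processed pseudogenes SHC1P1 and SHC1P2. The exons of SHC1 also share 326 bases with a long noncoding RNA on the opposite strand, which is not in the deposited counts. How shared reads were counted is not given in the sources used here.

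GRB2, on chromosome 17 (GRCh37, 73314157 to 73401790), binds phosphotyrosine with its SH2 domain and SOS with its SH3 domains. It had 132.2, 128.3 and 136.7 CPM in control and 136.2, 131.1 and 134.3 CPM in knockdown libraries. The ranges overlapped throughout. Its log2 fold change was 0.05 ± 0.04 SE, with a 95% interval from -0.03 to 0.12 (edgeR adjusted p 0.353). This is the narrowest interval among the members that did not pass the test.

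DOK4, on chromosome 16 (GRCh37, 57505834 to 57521239), is a small adaptor with PH and PTB domains that the insulin receptor and RET phosphorylate. It had 54.0, 47.1 and 48.0 CPM in control and 59.9, 58.2 and 57.9 CPM in knockdown libraries. Control replicate 1 was the highest control library and still lay below the knockdown libraries. The rise was 1.20-fold (log2 fold change 0.27 ± 0.05 SE, edgeR adjusted p 0.000501). DOK4 shares 88 exonic bases with POLR2C on the opposite strand, a subunit of RNA polymerase II that moved the other way (log2 fold change -0.46, edgeR adjusted p 2.61e-07).

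The FGF receptor substrates did not pass the test. FRS2, on chromosome 12 (GRCh37, 69864129 to 69973573), had 9.38, 9.71 and 10.1 CPM in control and 8.86, 9.14 and 9.39 CPM in knockdown libraries. The groups overlapped at their edges, and the log2 fold change was -0.06 with a 95% interval from -0.27 to 0.16 (edgeR adjusted p 0.703). FRS3, on chromosome 6 (GRCh37, 41737914 to 41754280), had the fewest reads of all members, with 43, 44 and 32 counts in control and 33, 37 and 68 counts in knockdown libraries. Knockdown replicate 3 was the highest of the 6 libraries in CPM, at 3.75, and knockdown replicate 2 the lowest, at 2.17. Its log2 fold change was -0.18 with a 95% interval from -0.66 to 0.29 (edgeR adjusted p 0.566), and -0.50 without knockdown replicate 3 (edgeR adjusted p 0.105). FRS3 shares 50 exonic bases with PRICKLE4 on the opposite strand, which had a log2 fold change of -0.33 (edgeR adjusted p 0.632). It also shares 132 exonic bases with another protein-coding gene on the opposite strand, which is not in the deposited counts.

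**Figure D3:**
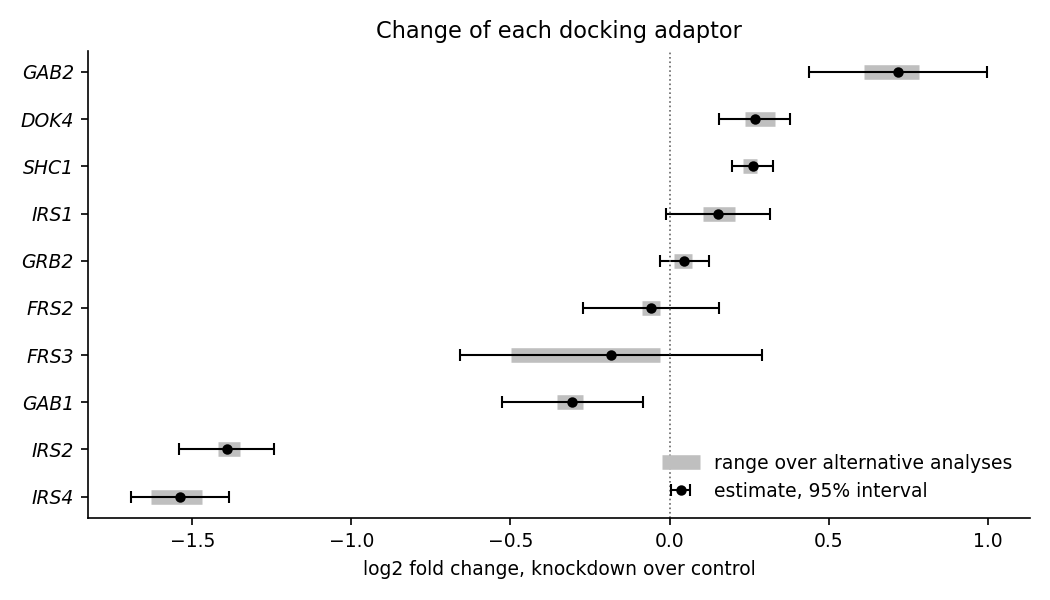
Log2 fold change of each docking adaptor, knockdown over control (n = 3 each), from the edgeR fit; points are estimates, black bars their 95% intervals and grey bars the range over the alternative analyses. IRS2 and IRS4 lie near -1.5, GAB2 is the highest at 0.72, and the intervals of IRS1, GRB2, FRS2 and FRS3 include 0.

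In control cells the level per length decreased in the order SHC1 (65.8 ± 0.802 CPM per kb), GRB2 (40.4 ± 1.27), DOK4 (17.7 ± 1.35), IRS4 (10.5 ± 1.21), IRS2 (4.06 ± 0.174), IRS1 (1.90 ± 0.119), FRS3 (1.48 ± 0.201), FRS2 (1.44 ± 0.0513), GAB1 (1.33 ± 0.0771) and GAB2 (0.843 ± 0.119), each as mean and SD with n = 3. Neighbours overlapped for FRS3 with FRS2 and for FRS2 with GAB1. With the longest transcript the control level of IRS4 was 4.202 CPM per kb, and its libraries overlapped those of IRS2. In knockdown cells IRS1 (2.07 ± 0.144 CPM per kb) stood above IRS2 (1.52 ± 0.0656), and GAB2 (1.36 ± 0.0174) was the highest of the last 4 members, overlapping FRS2. Set beside 24 other adaptor genes, IRS2 was exceeded in control by 14 of the 34 genes in all, among them CRK at 46.6 ± 1.59 CPM per kb and DOK1 at 22.9 ± 0.374 (SD, n = 3 each).

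The other genes of the pathway were read from 5 lists. Of the 24 other adaptors 17 were tested, and 3 rose and 1 fell, 23.5% against 38.5% of all genes. SH2B3, a brake on cytokine receptors, rose from 72.1 ± 1.66 to 97.4 ± 4.58 CPM (SD, n = 3 each; edgeR adjusted p 1.19e-07). CRK, which links docking proteins to RAP1 and RAC, had a log2 fold change of 0.15 and its paralogue CRKL of -0.27 (edgeR adjusted p 0.00283 and 2.87e-05). The remaining call was LAT, named after its values were seen (log2 fold change 0.17, edgeR adjusted p 0.0341). The median log2 fold change of the list was -0.04.

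Among receptors 18 of 24 were tested, and 6 rose and 3 fell, 50% of those tested against 38.5% of all genes, with a median log2 fold change of 0.09. The insulin receptor gene INSR had a log2 fold change of 0.17 and IGF1R of 0.05, and neither passed (edgeR adjusted p 0.0786 and 0.622). INSR passed without knockdown replicate 1 (0.0266), and in that fit IGF1R had a log2 fold change of -0.0513. FGFR4, a receptor that signals through FRS2, rose from 44.8 ± 3.001 to 82.7 ± 1.28 CPM (SD, n = 3 each; edgeR adjusted p 8.67e-11). ERBB3, which holds PI3K directly, and EGFR rose with log2 fold changes of 1.40 and 0.70 (edgeR adjusted p 6e-10 and 1.16e-09). FGFR3, NTRK2 and KIT were the 3 that fell, named after their values were seen, with log2 fold changes of -1.71, -0.50 and -1.33 (edgeR adjusted p 2.82e-09, 0.00014 and 5.01e-05).

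In the PI3K arm all 19 genes were tested, and 5 rose and 2 fell, 36.8% against 38.5% of all genes, with a median log2 fold change of 0.02. PIK3CD, the delta catalytic subunit, rose from 6.15 ± 1.04 to 10.5 ± 0.204 CPM (SD, n = 3 each; edgeR adjusted p 4.46e-05). PIK3CB, the beta catalytic subunit, had a log2 fold change of 0.24, and INPPL1, the phosphatase SHIP2, of -0.21 (edgeR adjusted p 0.000429 and 0.000541). In the RAS arm 7 of 15 genes rose and 4 fell, 73.3% against 38.5% of all genes, with a median log2 fold change of 0.14. MAPK3, the kinase ERK1, fell from 43.0 ± 1.74 to 31.4 ± 0.192 CPM (SD, n = 3 each; edgeR adjusted p 5.25e-06). HRAS fell with a log2 fold change of -0.44 (edgeR adjusted p 4.57e-06).

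The last list held genes that restrain the insulin receptor substrates. Of 16 such genes 15 were tested, and 2 rose and 1 fell, 20% against 38.5% of all genes, with a median log2 fold change of -0.04. PTPN2, a tyrosine phosphatase of the insulin receptor, and CBL, a ubiquitin ligase for receptors, had log2 fold changes of 0.20 and 0.21, and RPS6KB2, an S6 kinase, of -0.27 (edgeR adjusted p 0.00217, 0.00127 and 0.00118). Without control replicate 1 the count was 5 of these genes in place of 3, with 2 higher and 3 lower, and 32.6% of all genes passed.

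**Figure D4:**
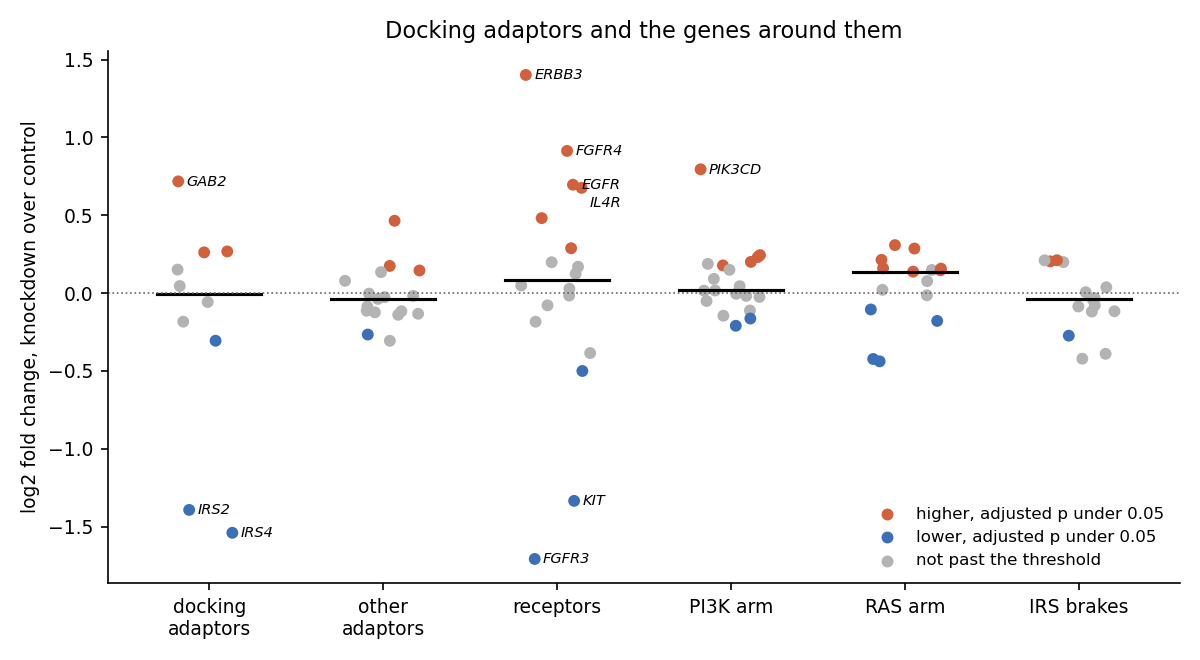
Log2 fold change, knockdown over control, of the tested genes in the docking adaptor group and in 5 lists of related genes; each point is a gene, coloured by the edgeR call, and black lines are list medians. Medians lie between -0.04 and 0.14, with IRS4, IRS2, FGFR3 and KIT the lowest points and ERBB3 the highest.

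The genes whose profile over the 6 libraries was most like that of IRS2 were sought by Pearson correlation of log2 CPM among the 10448 genes that averaged 100 counts or more. They were EPB41L3 and TAX1BP3 (r = 0.9995 each), FOXC1 (0.9994), CDH2 and PCBP3 (0.9991 each). For IRS4 they included BRI3BP (0.9994), SPIN2B and GLO1 (0.9988 each) and STRADB (0.9987). The 6 points fall into 2 groups and share their libraries, so r mostly reflects the difference between the groups and not its size. The log2 fold changes of the 5 genes named for IRS2 ran from -0.47 for TAX1BP3 to -1.92 for CDH2, and those of the 4 named for IRS4 from -0.24 for SPIN2B to -0.54 for BRI3BP. IRS2 and IRS4 correlated with each other at r = 0.994 over the same libraries.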

How the data were processed

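Total RNA of SW403 cells was sequenced on PCR-amplified Illumina libraries, per the labels' protocols. The authors deposited whole-number counts per gene symbol and a normalized signal, which from its values is the count over 1 factor per library, for genes with 10 or more reads in all. Per the submitters' processing notes, STAR 2.6.1a, Salmon and DESeq2 were used with build hg19. The strand setting and annotation are not given in the sources used here. 0 columns were left unused.

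Counts were tested with edgeR 4.0.16 in R 4.3.3 (TMM factors, filterByExpr, quasi-likelihood F-test, group as the only term), fitted on all genes. P-values were adjusted by Benjamini-Hochberg over 13832 genes, with a threshold of 0.05. SEs were derived from the log2 fold change and its F statistic. Printed CPM is scaled to total counts. Transcript lengths and gene positions come from GENCODE 44 lifted to GRCh37, and promoter windows from RefSeq (GRCh38.p14). Ratios were tested with an exact permutation test in scipy 1.17.1. The genes named are the members, INSR and IGF1R, the up to 3 smallest p-values past the threshold in each of 5 lists, and the 5 profiles most like IRS2 and IRS4. Some genes that this rule selects are not reported here. Others are said to have been named after their values were seen. Members and lists were chosen with earlier results of these data known. Alternatives were other scalings, filters and tests (DESeq2 1.42.0, limma 3.58.1, and log2 of the deposited normalized signal plus a pseudocount of 1 or 0.5), thinned counts, a replicate block and leaving out each library. The scripts were tested on simulated data.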

Additional observations from a re-analysis of the deposited data

How the results depend on the processing

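Under 17 alternative fits, 163 of 169 values of the 10 members did not change direction or cross the threshold, and all 6 others were GAB1, which lost its call with DESeq2's Wald test (log2 fold change -0.303), with thinned counts (-0.301) and in 4 of the 6 fits that each left out a library. Over all 6 of those fits its log2 fold change ran from -0.355 to -0.272. FRS3 gave no value with a mean of at least 50 counts, as it lies below that. Over the alternatives IRS2 ran from -1.42 to -1.35, IRS4 from -1.63 to -1.47 and GAB2 from 0.611 to 0.785, and 5 or 6 members were called. At an adjusted p of 0.01, 7 genes of the RAS arm list were called in place of 11, and 26.9% of all genes in place of 38.5%. Leaving out a library each gave 3 to 5 calls in the list of genes that restrain the insulin receptor substrates. With the longest transcript the control level per kb was 4.202 for IRS4 and 35.5 for GRB2. Of 459 values of 27 other named genes, 443 were the same, 14 of the others were SPIN2B, and IGF1R changed sign without knockdown replicate 1 (-0.0513, and up to 0.125 when another library was left out). Counts over all genes ran from 3714 (an adjusted p of 0.01) to 5722 (no filter). At the threshold of 0.05 the lowest count was 3890, 28.1% of all genes, with DESeq2's Wald test, where 5 members passed. The median log2 fold change of all genes was -0.0246 with upper-quartile factors and -0.0345 with library size alone.

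The replicate numbers are shared by both groups, but same-numbered libraries did not deviate together (correlations of -0.075, -0.042 and -0.221 between their deviations from the group means). No library correlated best with the library of its own number in the other group. With the replicate block 4862 genes and the same number of members, 6, were called, with log2 fold changes of -1.39 for IRS2, -1.54 for IRS4, -0.31 for GAB1 and 0.72 for GAB2. Under this block SPIN2B and LAT lost their calls. The limit of depth was clearest for FRS3 and GAB2, with 32 to 68 and 51 to 150 counts. The causes of these changes were not tested.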
